A study of Mus musculus with 18 samples.

Results

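The genes described here are 9 linked regulators of rapid transcription: the nuclear receptors Nr4a1, Nr4a2 and Nr4a3, the zinc finger factors Egr1, Egr2, Egr3 and Egr4, and the corepressors Nab1 and Nab2. They were taken by symbol through their Ensembl identifiers, and all 9 of the 34932 genes of the deposited table that belong to the set were found. The sequenced RNA came from mice exposed to chronic restraint stress, a procedure of repeated confinement, and from control mice, and was taken from 3 tissues: liver, brain and testis. Stress and control each had 3 libraries per tissue, 18 in all, and sample codes are shared across tissues, by which each replicate number was taken as 1 animal. The testis makes the animals male; no genetic modification is named, while strain, age, the length of the restraint and the time between the last session and tissue collection are not stated. The extraction protocol names hippocampus and the samples are named brain. Stress brain replicate 3 carries a description with the control prefix while its title, treatment and column name say stress. It was kept in the stress group.

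Total counts ran from 27.85 to 36.5 megacounts per library. Replicates of a group differed by more than counting error: chi-square divided by its degrees of freedom ran from 4.43 to 103.92 over the pairs. Defining markers fitted the labelled tissues: the hepatocyte list summed to at least 69450 CPM (counts scaled to a fixed library total) in each liver library, the neuron list to at least 6839 CPM in each brain library and the germ cell list to at least 11290 CPM in each testis library. The share of counts from mitochondrial mRNA was 5.54 to 6.15% in stress liver and 6.61 to 7.34% in control liver, 2.9 to 3.05% in stress brain and 3.24 to 3.9% in control brain, and 0.59 to 1.04% in stress testis and 1.04 to 1.44% in control testis.

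The Nr4a and Egr genes are immediate early genes: their transcription starts within minutes of a hormone, growth factor or neuronal stimulus, without new protein synthesis, and their mRNAs are short-lived. NR4A proteins are orphan receptors that act without a known natural hormone, bind the motif called NBRE as monomers, and in the case of NR4A1 and NR4A2 also pair with the retinoid X receptors. EGR proteins bind GC-rich sites in growth, synaptic and metabolic genes. NAB1 and NAB2 bind EGR1, EGR2 and EGR3 and repress their activity, and Nab2 is itself induced by EGR factors. In mouse liver NR4A1 is known to act on genes of glucose production, in Leydig cells of the testis on steroid synthesis, and in the brain NR4A2 is needed for dopamine neurons while Egr1 serves as a marker of neuronal activity.

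Promoter windows are shown because several of these genes moved together from library to library in liver. RefSeq windows (build GRCm38.p6, from 250 bases before to 50 bases after the annotated start) were given for 7 of the 9 genes, in 11 windows; Egr1 and Egr3 had none. Letters in capitals mark matches on either strand to the core of the cyclic AMP response element (TGACG), the EGR site (GCGNGGGCG) or the CArG box, which is bound by serum response factor; no matches overlapped. Sequences run 5′ to 3′ on the strand of the gene.
Nr4a1, chr15:101266596-101266895, plus strand: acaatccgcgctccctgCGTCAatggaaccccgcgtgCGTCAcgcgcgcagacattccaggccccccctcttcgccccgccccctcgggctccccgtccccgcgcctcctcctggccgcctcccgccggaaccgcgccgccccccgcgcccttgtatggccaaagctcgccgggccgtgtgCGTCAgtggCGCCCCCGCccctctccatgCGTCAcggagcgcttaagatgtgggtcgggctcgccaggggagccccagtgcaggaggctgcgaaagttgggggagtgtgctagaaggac
Nr4a2, chr2:57123954-57124253, minus strand: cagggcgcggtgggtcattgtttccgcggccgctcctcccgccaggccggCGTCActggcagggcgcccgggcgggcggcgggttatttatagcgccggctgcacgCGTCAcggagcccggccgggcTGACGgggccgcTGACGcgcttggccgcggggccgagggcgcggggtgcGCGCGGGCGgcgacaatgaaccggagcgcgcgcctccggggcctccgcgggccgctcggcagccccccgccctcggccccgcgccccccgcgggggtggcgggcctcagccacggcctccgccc
Nr4a3, chr4:48045055-48045354, plus strand: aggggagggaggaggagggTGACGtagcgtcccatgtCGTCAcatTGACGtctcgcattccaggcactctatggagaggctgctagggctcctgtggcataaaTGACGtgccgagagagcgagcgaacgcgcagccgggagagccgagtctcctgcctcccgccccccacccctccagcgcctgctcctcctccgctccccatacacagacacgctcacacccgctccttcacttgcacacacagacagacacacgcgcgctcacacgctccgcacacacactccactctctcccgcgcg
Egr2, chr10:67537619-67537918, plus strand: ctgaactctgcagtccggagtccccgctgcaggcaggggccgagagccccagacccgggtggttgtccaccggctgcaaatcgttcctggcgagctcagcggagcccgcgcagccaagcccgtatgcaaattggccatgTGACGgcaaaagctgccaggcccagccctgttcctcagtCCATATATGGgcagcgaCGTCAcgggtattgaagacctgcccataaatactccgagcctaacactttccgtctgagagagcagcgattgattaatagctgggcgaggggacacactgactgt
Nab1, chr1:52500399-52500698, minus strand: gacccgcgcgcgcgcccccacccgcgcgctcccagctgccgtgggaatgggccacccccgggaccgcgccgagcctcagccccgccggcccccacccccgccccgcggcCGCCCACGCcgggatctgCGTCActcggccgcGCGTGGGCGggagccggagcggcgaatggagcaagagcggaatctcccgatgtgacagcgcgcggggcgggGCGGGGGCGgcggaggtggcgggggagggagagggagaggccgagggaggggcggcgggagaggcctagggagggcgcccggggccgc

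The 3 Nr4a windows each held 4 copies of TGACG, a number reached by 0.231% of the 32851 mouse promoter windows of this length, while 20.8% held at least 1. The Egr2 window shown and the single Egr4 window held 2 copies each, Nab1 held 1 and Nab2 held 0. A CArG box lay 72 bases before the start in the Egr2 window shown, and 1.63% of all windows held such a box. Egr2 had several windows, and the one shown, with 3 matches, was among those with the most. Other Egr2 windows had 0 and 1 match, and the shares over all windows do not allow for this choice. EGR sites were matched once in Nr4a1, once in Nr4a2 and 3 times in Nab1, and in 5.55% of all windows. The full response element TGACGTCA and the NBRE AAAGGTCA, held by 1.79% and 1.51% of all windows, had no match in any of these windows. The letters describe the windows and carry no evidence of binding.

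**Figure D1:**
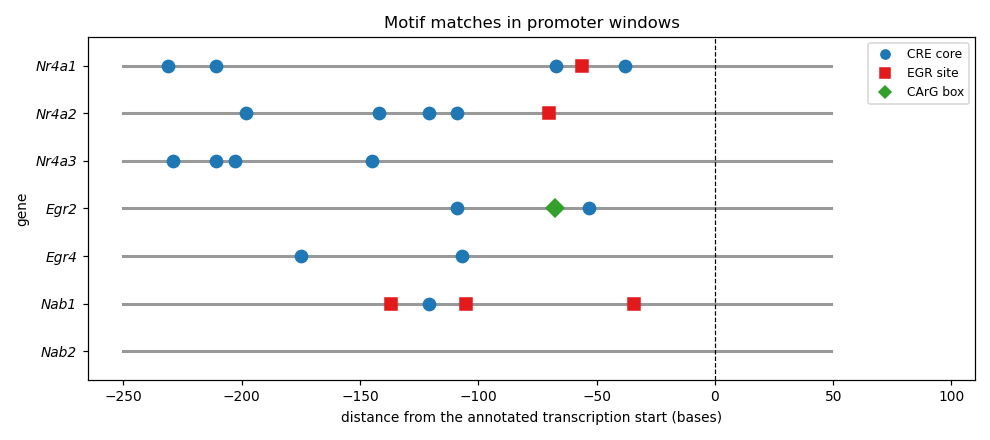
Motif matches in the promoter windows of 7 of the genes; the x axis is the distance in bases from the annotated transcription start, the grey line is the window, blue circles mark the core TGACG, red squares the EGR site and the green diamond the CArG box. The windows of Nr4a1, Nr4a2 and Nr4a3 carry 4 circles each, Nab1 carries 3 squares, and Nab2 carries no match. For Egr2, which had several windows, one with the most matches is drawn.

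Levels between genes and tissues were compared as TPM (transcript abundance, in which counts are divided by gene length and scaled to a fixed library total), in the control mice. Control brain held the set at high levels: Egr1 averaged 489.7 ± 27.8 TPM and Nr4a1 488.7 ± 106.8 TPM (SD, n = 3), followed by Egr3 at 255.4 ± 24.2 and Egr4 at 205.1 ± 32.2 TPM. Nr4a2 stood at 89.8 ± 35.4 TPM, Egr2 at 50.001 ± 11.97, Nr4a3 at 37.8 ± 15.5, Nab2 at 37.0 ± 7.82 and Nab1 at 20.3 ± 0.660 TPM. The ranges of Egr1 and Nr4a1 overlapped, as did those of Egr3 and Egr4 and those of each neighbouring pair among Nr4a2, Egr2, Nr4a3 and Nab2, so these neighbours did not differ beyond their spread. The length the authors used for Egr3 was 1416 bases, against 4484 for Egr1, and sets its place in that order.

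Control liver kept the same leading pair with a much lower tail. Egr1 averaged 377.7 ± 83.0 TPM and Nr4a1 213.9 ± 23.1 TPM (SD, n = 3), then came Egr2 at 21.7 ± 18.8 and Nab1 at 21.2 ± 4.29 TPM, whose ranges overlapped. Nab2 followed at 11.0 ± 3.21 TPM, and Nr4a3 (1.55 ± 1.21) and Nr4a2 (1.31 ± 0.486 TPM) overlapped at the low end. Egr3, with 0.459 TPM and a range that met that of Nr4a2, and Egr4, with 4 counts in 1 of the 3 libraries and 0 in the others, were close to absent at this depth.

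Control testis had another order. Nr4a1 (58.4 ± 8.96 TPM) and Egr3 (56.1 ± 4.504 TPM; SD, n = 3) led with overlapping ranges, ahead of Egr1 at 20.3 ± 9.82, Egr4 at 12.9 ± 3.18 and Nab2 at 11.4 ± 1.09 TPM, whose ranges overlapped. Nab1 averaged 7.55 ± 0.726 TPM. Nr4a3, Nr4a2 and Egr2 lay at 1.49 ± 0.191, 0.966 ± 0.475 and 0.632 ± 0.747 TPM, again with overlapping ranges. Egr4, which is needed for sperm production in mice, and Egr3 were thus far more abundant in testis than in liver.

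The tissue differences were tested on the counts with edgeR in control libraries. Between control brain and control testis all 9 genes passed, each higher in brain, with log2 differences from 0.72 for Nab1 to 5.81 for Nr4a2; 88.1% of all genes tested passed in that comparison, so the count of 9 says little by itself. Between control testis and control liver 8 of 9 passed (88.5% of all genes), with Egr3 and Egr4 higher in testis by 5.87 ± 0.53 and 7.25 ± 0.60 (log2 ± SE) and Egr1, Egr2, Nr4a1, Nr4a2, Nab1 and Nab2 lower. Between control brain and control liver 7 of 9 passed (80.1% of all genes), with Egr4, Egr3, Nr4a2 and Nr4a3 higher in brain by 10.56, 7.35, 4.26 and 2.80. Nab1 was lower in brain by the counts (−1.88) and at −0.04 by TPM (limma adjusted p = 0.815). For the other 4 genes the direction depended on the scale, as the median of all genes moved from 0.33 on the count scale to 1.73 on log2(TPM + 0.5). Nr4a1 was lower in brain by the counts (−0.64) and higher by TPM (1.17), and Egr1 (−1.45 and 0.40), Egr2 (−0.60 and 1.53) and Nab2 (−0.08 and 1.73) likewise changed sign. Nab2 also changed sign between testis and liver (−1.10 by the counts, 0.09 by TPM), as did Nr4a3 (−1.16 and 0.21), where the median of all genes was 0.93 and 1.41. Nr4a2 was at −1.58 in testis against liver by the counts but at −0.31 by TPM (limma adjusted p = 0.315), and limma called 6 of the 9 genes in that comparison.

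In stressed livers the Nr4a receptors lay below every control liver. Nr4a3 (ENSMUSG00000028341) fell, the single one of the 9 genes to pass over all genes tested, and Nr4a1 and Nr4a2 missed the threshold narrowly. Egr1 and Egr2 were extremely low in 2 of the 3 stress livers and at or near the control level in the third. Nab1 differed by −0.05 on the log2 scale. In bulk tissue, fewer cells of a type and less RNA per cell cannot be told apart.

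Nr4a1 (ENSMUSG00000023034), also called Nur77, had 4.36, 48.3 and 4.81 CPM in stress livers 1, 2 and 3, against 268, 312 and 247 CPM in control livers. The groups did not overlap, and stress liver 2 stood about midway on the log scale between the control livers and the other stress livers. Its log2 fold change was −3.85 ± 0.83 (SE; edgeR adjusted p = 0.0534). Leaving out stress liver 2 made it −5.91 with an adjusted p of 5.42e-06, and leaving out any of the other 5 libraries left it between −3.92 and −3.37 with adjusted p from 0.0695 to 0.168.

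Nr4a3, also called NOR-1, had 0.0641, 0.0604 and 0.393 CPM in stress livers, from 2, 2 and 12 counts, against 0.553, 7.56 and 6.18 CPM in control livers, from 19, 254 and 199 counts. All stress livers were below all control livers, though control liver 1 was far below the other control livers. The log2 fold change was −4.78 ± 0.99 (SE; edgeR adjusted p = 0.0498). The call rests on few counts and stands at the threshold: it held without control liver 1 (adjusted p = 0.00679), was lost without any other library (0.089 to 0.145), and was lost on log2(TPM + 0.5) with limma (−1.63, adjusted p = 0.164).

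Nr4a2 (ENSMUSG00000026826), or Nurr1, had 0.577, 1.09 and 0.393 CPM in stress livers against 3.87, 1.70 and 2.76 CPM in control livers. Here too the groups did not overlap, at a level far below that of Nr4a1. The log2 fold change was −2.01 ± 0.46 (SE; edgeR adjusted p = 0.0623), and DESeq2 gave −2.02 with an adjusted p of 0.000976. It passed in edgeR without stress liver 2 (−2.51, adjusted p = 0.0434).

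Egr1 (ENSMUSG00000038418), the most abundant of the set in liver, had 6.09, 1052 and 2.81 CPM in stress livers, against 689, 950 and 992 CPM in control livers. Stress liver 2 was above every control liver, with 34800 counts, while stress livers 1 and 3 had 190 and 86 counts. The fitted log2 fold change of −1.31 ± 1.53 (SE; adjusted p = 0.712 in edgeR) averages over libraries that disagree, and limma on log2(TPM + 0.5) gave −4.79 (adjusted p = 0.242). Without stress liver 2 it was −7.62 with an adjusted p of 2.38e-05, and without any of the other libraries it stayed between −1.46 and −0.73 with adjusted p of 0.699 or more.

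Egr2 (ENSMUSG00000037868), known as Krox20 and required for myelination by Schwann cells, repeated the split at a lower level. Its values were 0.128, 18.9 and 0.262 CPM in stress livers and 12.5, 27.5 and 72.4 CPM in control livers. Stress liver 2 lay inside the control range and the other stress livers far below it. The log2 fold change was −2.53 ± 1.25 (SE; edgeR adjusted p = 0.337), and −7.56 with an adjusted p of 0.00682 without stress liver 2.

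Egr3 and Egr4 were too low in liver to be tested. Egr3 had 0, 4 and 0 counts in stress livers against 1, 6 and 25 in control livers. Egr4 had 0 counts in every stress liver, which allows up to 0.0318 CPM over that group (3 counts; counting error only), against 0, 0 and 4 counts in control livers. Changes of these genes in liver were not detectable at this depth.

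The corepressors differed from each other. Nab1 (ENSMUSG00000002881) had 44.6, 43.7 and 42.6 CPM in stress livers and 36.3, 48.9 and 50.04 CPM in control livers, and its log2 fold change was −0.05 ± 0.14 (SE; edgeR adjusted p = 0.903). Nab2 (ENSMUSG00000025402), the EGR-induced corepressor, had 7.43, 15.2 and 9.33 CPM in stress livers and 22.04, 17.7 and 11.0 CPM in control livers. Stress livers 1 and 3 were below every control liver and stress liver 2 was inside the control range, as for Egr2 but over a much smaller span, and the log2 fold change was −0.67 ± 0.30 (adjusted p = 0.299). Nab2 overlaps Nemp1, Stat6 and Gm16229 on the opposite strand in GENCODE M21, and whether counting used strand is unknown, so reads of these genes cannot be told apart.

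Counted over the set, 7 of the 9 genes were tested in liver and all 7 had a log2 fold change below 0, with a median of −2.01 against −0.01 over all genes tested. With edgeR 1 was lower and 0 were higher past the threshold, where 0.645% of all tested genes were lower and 0.982% higher. Stress libraries were all below control libraries in 3 of the genes (Nr4a1, Nr4a2 and Nr4a3) and all above in 0, against 11.1% and 12% of all tested genes. At an unadjusted p below 0.05 edgeR had 3 of the genes, against 2445 of all 14253 tested. DESeq2 called 2 of the set, Nr4a2 and Nr4a3, against 856 over all genes, and gave no adjusted p for Nr4a1 and Egr1. On log2(TPM + 0.5), limma called Nr4a1 alone (−4.64, adjusted p = 0.0473), against 132 over all genes.

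**Figure D2:**
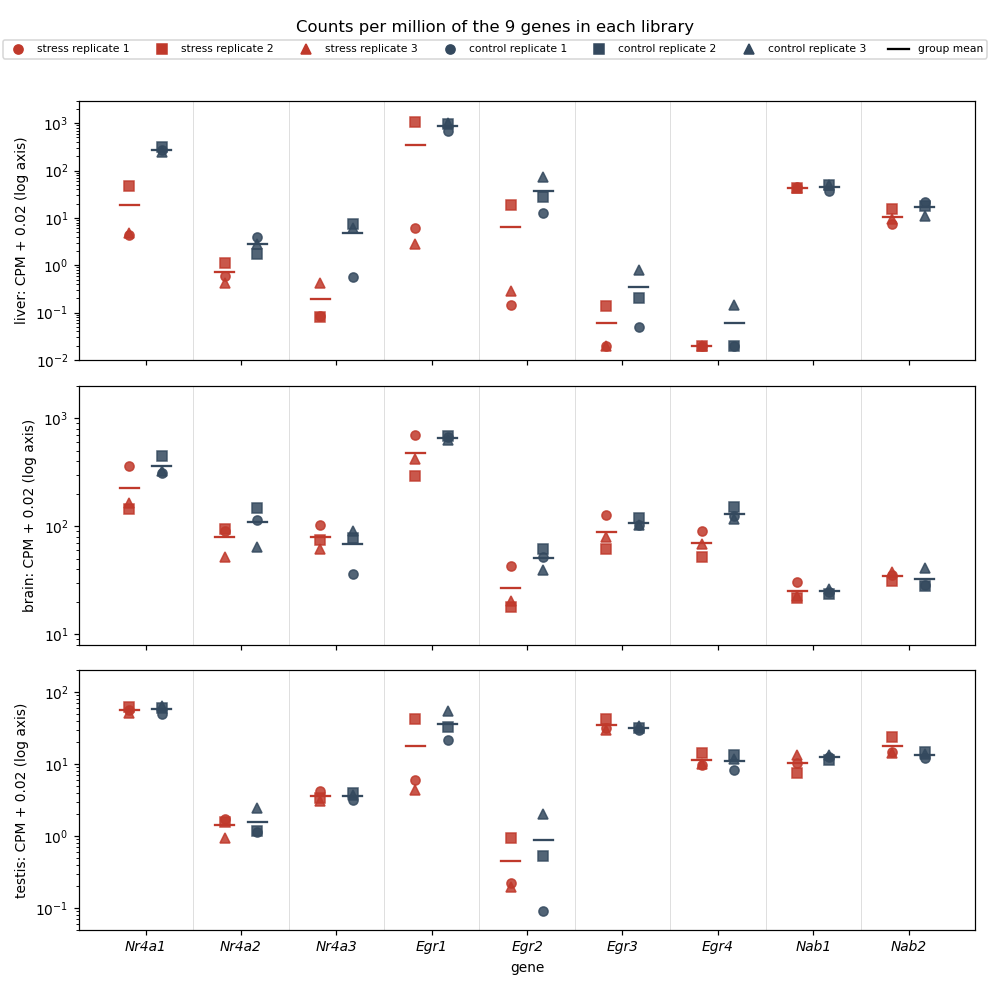
Each point is 1 library; the y axes give CPM + 0.02 on a log axis for liver, brain and testis from top to bottom, with stress in red left of control in dark blue, marker shape for the replicate and a bar at the group mean. In liver the 3 stress values of Nr4a1, Nr4a2 and Nr4a3 lie below the control values, and stress replicate 2 of Egr1, at 1052 CPM, stands apart from the other stress livers at 6.09 and 2.81 CPM.

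Macrophage markers moved with the treatment in liver. The list of 10 macrophage and microglia markers summed to 204, 169 and 178 CPM in stress livers and 96.5, 81.7 and 83.8 CPM in control livers, with no marker at 0 in either group. Endothelial markers overlapped between groups and summed to 70.1, 72.0 and 42.8 CPM in stress livers and 99.6, 67.7 and 87.3 CPM in control livers, with no marker at 0. Hepatocyte markers, none at 0, summed to 74700, 89480 and 69450 CPM in stress livers 1, 2 and 3 and to 78500, 77240 and 91060 CPM in control livers. The hepatocyte sums of stress livers 1 and 3 were thus slightly below every control liver, with stress liver 2 inside the control range. Egr2 placed the same libraries below the control range, but over a far larger span. It had 0.128 and 0.262 CPM in stress livers 1 and 3, against 12.5, 27.5 and 72.4 CPM in control livers. The part of these cell types in the results was not tested.

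Brain gave no passing gene of the set. Egr4 was lower in every stress brain than in any control brain, and Nr4a1, Egr1, Egr2 and Egr3 were lower in stress brains 2 and 3 than in every control brain while stress brain 1 was not. Nab1, Nab2 and Nr4a3 had no common direction.

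Egr4 (ENSMUSG00000071341) had 90.2, 52.3 and 68.8 CPM in stress brains against 124, 152 and 117 CPM in control brains. The groups did not overlap, and the log2 fold change was −0.89 ± 0.20 (SE; edgeR adjusted p = 0.399). DESeq2 gave −0.90 with an adjusted p of 0.00225, and edgeR blocked on replicate gave −0.92 with an adjusted p of 0.10.

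Nr4a1 had 362, 145 and 163 CPM in stress brains and 311, 446 and 326 CPM in control brains. Stress brain 1 lay inside the control range, and the log2 fold change was −0.69 ± 0.34 (SE; edgeR adjusted p = 0.697). Egr1 had 705, 289 and 422 CPM in stress brains and 666, 676 and 628 CPM in control brains, a log2 fold change of −0.48 ± 0.28 (adjusted p = 0.738). Its control brains were close together, with an SD of 25.5 CPM, and stress brain 1 was above all of them.

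Egr2 had 42.6, 17.8 and 20.5 CPM in stress brains and 51.7, 61.5 and 38.95 CPM in control brains (log2 fold change −0.91 ± 0.33, SE; edgeR adjusted p = 0.62). Egr3 (ENSMUSG00000033730), which is needed for muscle spindles and responds to synaptic activity, had 126, 61.0 and 78.8 CPM in stress brains and 103, 118 and 103 CPM in control brains, a log2 fold change of −0.29 ± 0.24. For each of these genes stress brain 1 was the highest of the stress brains. Nr4a2 ran from 51.9 to 95.2 CPM in stress brains and from 64.7 to 147 CPM in control brains, and Nr4a3 from 61.0 to 103 and from 35.8 to 89.9 CPM, with log2 fold changes of −0.45 and 0.23. Nab1 and Nab2 differed by 0.0 and 0.09 on the log2 scale.

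All 9 genes were tested in brain and 6 had a log2 fold change below 0, with a median of −0.45 against 0.0 over all genes. EdgeR called 0 lower and 0 higher, against 0.0% and 0.00566% of all genes tested. At an unadjusted p below 0.05 it had 2 of the set, Egr4 and Egr2, against 1332 of all 17668 tested. DESeq2 called 1 of the set and limma 0, against 137 and 1 over all genes. Stress values were all below control values in 1 gene (6.64% of all genes) and all above in 0 (7.21%). With the replicate number as a block, edgeR called 22 genes in brain in place of 1, and still 0 of the set.

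The dissected brain tissue differed between libraries. Choroid plexus markers, all 9 detected in both groups, summed to 18.6, 540 and 360 CPM in stress brains and 9.45, 15.5 and 16.1 CPM in control brains. In stress brains 2 and 3 most of the sum was the single gene Ttr, at 492 and 320 CPM. Ttr was at 3.67 CPM in stress brain 1 and at 0.655, 5.80 and 0.277 CPM in control brains. The stress brains with high choroid plexus sums, 2 and 3, are those with low Nr4a1, Egr1, Egr2 and Egr3. Striatum markers summed to 121, 284 and 1325 CPM in stress brains and 162, 160 and 2124 CPM in control brains, cortex markers to 784, 552 and 547 and to 952, 778 and 569 CPM, and hippocampus markers to 292, 370 and 289 and to 271, 299 and 279 CPM. Neuron markers lay at 7009 to 7217 CPM in stress brains and 6839 to 7942 CPM in control brains. The part of dissection in the results was not tested.

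None of the 9 genes passed in testis, where Egr1 again split the stress animals. Egr1 had 6.02, 42.2 and 4.42 CPM in stress testes against 21.6, 32.7 and 55.1 CPM in control testes. Stress testes 1 and 3 were below every control testis and stress testis 2 was inside the control range. The log2 fold change was −1.06 ± 0.73 (SE; edgeR adjusted p = 0.535), and −2.82 with an adjusted p of 0.0123 without stress testis 2. Egr2, at 0.202, 0.921 and 0.179 CPM in stress testes and 0.0722, 0.506 and 1.98 CPM in control testes, overlapped between groups.

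Nr4a1 varied little in testis, with 56.2, 61.2 and 50.6 CPM in stress testes and 48.98, 60.4 and 64.6 CPM in control testes. Its log2 fold change was −0.05 ± 0.12 (SE; edgeR adjusted p = 0.873). Nr4a2 and Nr4a3 differed by −0.19 and −0.02, Egr3 by 0.12, Egr4 by 0.03 and Nab1 by −0.27 on the log2 scale, each with overlapping groups and adjusted p of 0.566 or more. Nab2 had 14.9, 23.6 and 14.2 CPM in stress testes and 12.2, 14.6 and 13.6 CPM in control testes, a log2 fold change of 0.38 ± 0.20 (adjusted p = 0.452). Its highest value was in stress testis 2, the stress testis with control-like Egr1.

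Of the 9 genes tested in testis, 6 had a log2 fold change below 0, with a median of −0.05 against 0.01 over all genes. EdgeR called 0 lower and 0 higher, against 0.0151% and 0.00502% of all genes. At an unadjusted p below 0.05 it had 0 of the set, against 2337 of all 19915 tested. DESeq2 and limma called 0 of the set, against 61 and 2 over all genes. Stress values were all below control values in 0 genes and all above in 0 genes, against 10.7% and 10.3% of all genes. Germ cell markers summed to 12840 to 14440 CPM in stress testes and 11290 to 11960 CPM in control testes, macrophage markers to 349 to 433 and 293 to 297 CPM, and Leydig cell markers to 366, 534 and 385 and to 443, 421 and 451 CPM; no marker of these lists was at 0. The small RNA gene Gm23935 took 16.75% of TPM in stress testis 2, against 2.73 to 11.4% in the other testes. The part of cell composition was not tested.

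**Figure D3:**
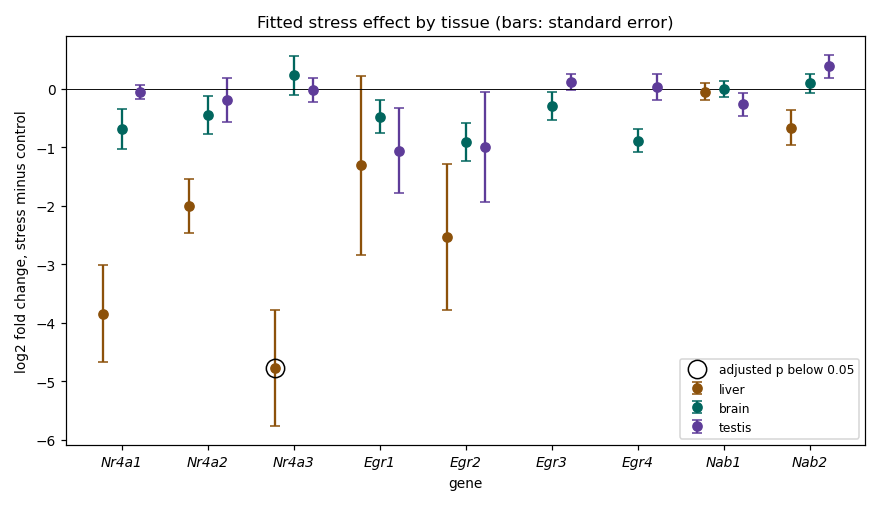
Fitted log2 fold change, stress minus control, of each gene (x axis) in liver (brown), brain (green) and testis (purple); bars are standard errors and the ring marks an adjusted p below 0.05. The 3 Nr4a genes lie at −3.85, −2.01 and −4.78 in liver and near 0 in testis, and the wide bars of Egr1 and Egr2 in liver come with the split among the stress livers.

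The stress effects of 2 tissues were compared directly as an interaction. For liver minus brain the log2 differences were −3.14 ± 1.0 (SE; edgeR adjusted p = 0.231) for Nr4a1, −5.02 ± 1.14 (0.103) for Nr4a3, −1.54 ± 0.59 (0.322) for Nr4a2 and −0.83 ± 1.87 (0.983) for Egr1. For liver minus testis they were −3.84 ± 0.92 (0.106) for Nr4a1, −4.80 ± 1.04 (0.0761) for Nr4a3, −1.86 ± 0.64 (0.221) for Nr4a2 and −0.28 ± 1.99 (1.0) for Egr1. No difference of stress effect passed for any of the 9 genes in liver against brain (0.195% of all genes passed), liver against testis (0.154%) or brain against testis (0.0%). At an unadjusted p below 0.05 edgeR had 3, 5 and 1 of the genes in these comparisons, DESeq2 called 1, 2 and 0, and limma called 0 in each. Over all genes edgeR had 2201 of 18962, 2972 of 21392 and 2112 of 22391 at that unadjusted level. Both liver comparisons share the liver libraries. Without stress animal 2 (both of its libraries), 3 of the genes passed for liver against brain and 2 for liver against testis, among them Nr4a1 and Egr1. Animal 2 is the stress animal whose Nr4a1 and Egr1 stood apart in liver, so this count gives no separate support. The ranges with each animal left out, for these genes and over all genes, are given below.

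Following each animal across its tissues showed where the libraries stood apart. On log2(CPM + 0.5) relative to the control mean of the tissue, Egr1 in stress animals 1, 2 and 3 was at −7.04, 0.28 and −8.03 in liver, at 0.10, −1.18 and −0.64 in brain and at −2.40, 0.31 and −2.81 in testis. Animals 1 and 3 were thus low in liver and testis, and animal 2 was at the control level in both of these tissues but lowest in brain. Nr4a1 in the same order was at −5.82, −2.49 and −5.69 in liver, at 0.02, −1.29 and −1.13 in brain and at −0.04, 0.09 and −0.185 in testis, so that its split in liver had no counterpart in testis. These are 3 animals, as taken from the shared sample codes, and no test was made of the likeness between tissues.

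**Figure D4:**
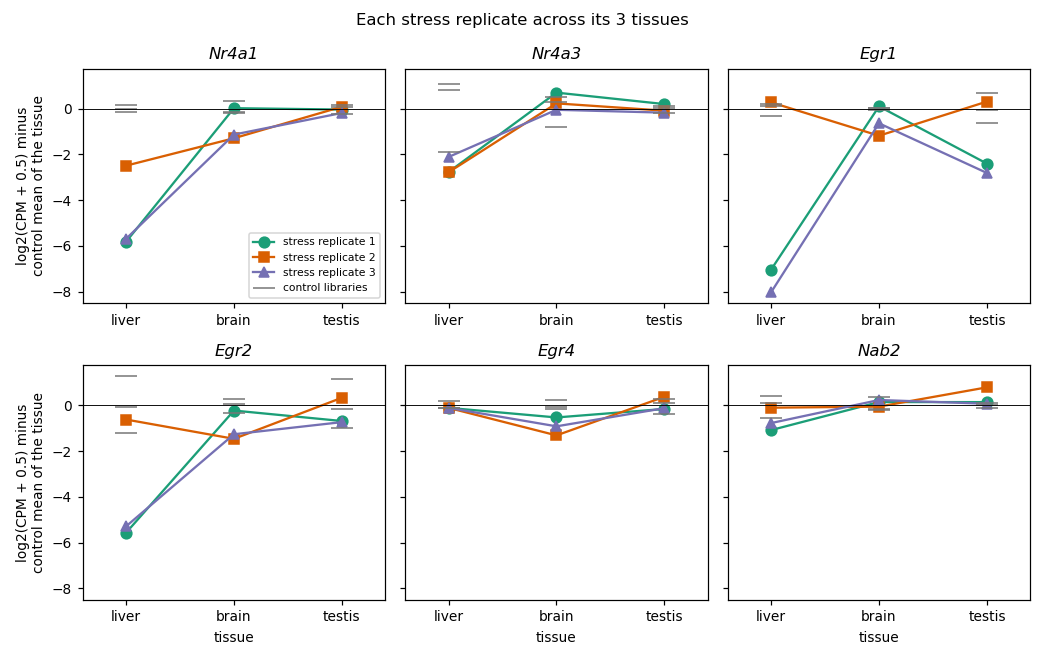
Log2(CPM + 0.5) minus the control mean of the tissue (y axis) for 6 of the genes in liver, brain and testis (x axis); coloured lines join the libraries of 1 stress animal and grey dashes are the control libraries. The Egr1 panel shows stress replicates 1 and 3 at −7.04 and −8.03 in liver and −2.40 and −2.81 in testis, with replicate 2 at 0.28 and 0.31.

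**Figure D5:**
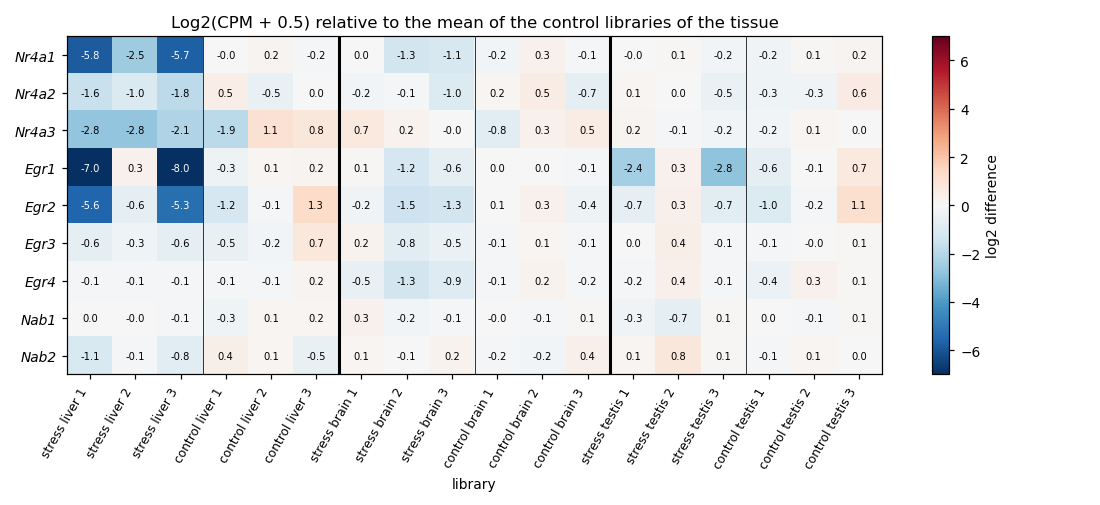
Log2(CPM + 0.5) minus the control mean of the tissue for each gene (rows) in each library (columns, stress before control within each tissue); blue is lower and red is higher. The darkest cells are Nr4a1, Egr1 and Egr2 in stress livers 1 and 3, while the farthest Nab1 value is −0.707, in stress testis 2.

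The genes whose profile over the 18 libraries was most like that of Nr4a1 and Egr1 were sought by the mean absolute log2 difference between deviations from the control mean, over 10286 genes with a mean of at least 1 CPM in each tissue. For Nr4a1 they were Fosb (0.381), Socs3 (0.573), Tchh (0.590), Junb (0.595) and Csrnp1 (0.620), where the median over all these genes was 1.06. For Egr1 they were Fos (0.492), Btg2 (0.705), Junb (0.758), Zfp36 (0.803) and Nr4a1 itself (0.807), where the median was 1.41. Fos, the AP-1 subunit induced by the same stimuli, had 2.88, 827 and 4.39 CPM in stress livers and 628, 843 and 512 CPM in control livers, and 0.538, 11.0 and 0.716 CPM in stress testes and 3.79, 7.30 and 24.5 CPM in control testes. Its split between stress animal 2 and the others followed that of Egr1 in both tissues. Fos was picked for likeness to Egr1 over these same libraries, so the shared split adds no separate support. Fosb, another AP-1 subunit, had 1.28, 4.56 and 1.05 CPM in stress livers and 25.7, 23.1 and 29.8 CPM in control livers. Its stress liver 2 lay between the other stress livers and the control livers, as for Nr4a1, for whose likeness Fosb was picked.

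The other immediate early genes, a list of 34, were mostly lower in stressed liver, and 2 of them fell. Of 32 tested there, 30 had a log2 fold change below 0, with a median of −1.29 against −0.01 over all genes, and the stress values of 14 were all below the control values, which held for 11.1% of all genes. In edgeR 2 passed, both lower, where 0.645% of all genes were called lower (19 of the list were at an unadjusted p below 0.05; DESeq2 called 7 and limma 1): Fosb (−3.50 ± 0.46, adjusted p = 0.0116) and Myc, the growth regulator (−2.74 ± 0.54, adjusted p = 0.047). The AP-1 genes Fosl2 (−1.20, edgeR adjusted p = 0.053) and Jund (−1.30, adjusted p = 0.0549) did not pass. At an unadjusted p below 0.05 edgeR had 2445 of all 14253 genes tested in liver, where DESeq2 called 856 and limma 132. The median deviation of the list was −1.90, −0.48 and −1.90 in stress livers 1, 2 and 3, and −0.30, −0.09 and 0.35 in control livers.

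For brain, 30 of 34 tested genes of that list were below 0 with a median of −0.34 against 0.0, and in edgeR 0 passed (14 at an unadjusted p below 0.05; DESeq2 called 4 and limma 0). The smallest p belonged to Btg2, an antiproliferative gene, with 41.7, 40.8 and 27.4 CPM in stress brains and 148, 168 and 59.1 CPM in control brains (−1.77 ± 0.37, adjusted p = 0.387). For testis, 12 of 32 were below 0 with a median of 0.13 against 0.01, and 0 passed in edgeR (1 at an unadjusted p below 0.05; DESeq2 and limma called 0). The median deviation of the list in stress testes 1, 2 and 3 was −0.06, 0.47 and −0.13, again highest in animal 2. At an unadjusted p below 0.05 edgeR had 1332 of all 17668 genes tested in brain and 2337 of 19915 in testis. DESeq2 called 137 and 61 of all genes in these tissues, and limma 1 and 2.

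No gene on the upstream side of the pathway passed. Among the serum response factor, ternary complex and CREB factors, 18 were tested in each tissue and 0 passed in edgeR; in liver 1 had an unadjusted p below 0.05, in brain 1 and in testis 0, and DESeq2 and limma called 0. The median log2 fold changes were −0.06 in liver, 0.01 in brain and −0.05 in testis. Of the ERK and protein kinase A genes, 14 were tested in liver and 15 in each other tissue, and 0 passed in edgeR (2, 1 and 1 at an unadjusted p below 0.05 in liver, brain and testis; DESeq2 called 1, 0 and 0, limma 0 in each). The median log2 fold changes of this list were −0.12 in liver, −0.02 in brain and −0.01 in testis. In liver the stress values of 3 of its genes were all below control values and those of 1 all above. Rps6ka1 had 9.29, 6.77 and 8.31 CPM in stress livers and 18.5, 11.6 and 14.9 CPM in control livers (−0.89 ± 0.2 SE, edgeR adjusted p = 0.063). These are mRNA levels and do not measure the activity of kinases or of CREB.

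Partners of the proteins were tested as well, with the counts over all genes in each tissue as given above. Among the 3 retinoid X receptors 0 passed in edgeR in any tissue (2, 1 and 1 at an unadjusted p below 0.05 in liver, brain and testis; DESeq2 called 1, 0 and 0, limma 0). Rxrg, with 2.98, 3.11 and 2.85 CPM in stress livers and 8.33, 5.98 and 4.47 CPM in control livers, did not overlap between groups (−1.07 ± 0.26, edgeR adjusted p = 0.0709). The far more abundant Rxra ran the other way without overlap, at 365, 359 and 373 CPM in stress livers and 282, 305 and 290 CPM in control livers. Its log2 fold change was 0.32 ± 0.12 in liver (edgeR adjusted p = 0.203) and 0.36 ± 0.08 in brain (0.442). Rxrb was at 0.19 in liver. Of the 8 chromatin partners of NAB and EGR proteins 0 passed in edgeR in any tissue (2, 0 and 0 at an unadjusted p below 0.05; DESeq2 called 1, 0 and 0, limma 0).

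Genes described as NR4A1 targets in glucose production in mouse liver had no common direction. All 6 were tested in liver, 3 had a log2 fold change below 0, and 1 passed in edgeR, higher, where 0.982% of all genes were called higher (4 of the list were at an unadjusted p below 0.05; DESeq2 called 3 and limma 1). Over all genes, 2445 of 14253 were at that unadjusted level, DESeq2 called 856 and limma 132. Stress values were all below control values in 3 of the 6 and all above in 1, against 11.1% and 12% of all genes. Pck1, the phosphoenolpyruvate carboxykinase gene, rose to 3914, 4112 and 3302 CPM in stress livers, against 1606, 1415 and 1943 CPM in control livers (1.19 ± 0.16, adjusted p = 0.0119). G6pc, the catalytic subunit of glucose-6-phosphatase, had 298, 326 and 388 CPM in stress livers and 868, 493 and 632 CPM in control livers (−0.98 ± 0.21, adjusted p = 0.0519). These 2 genes, the entry and the terminal enzymes of glucose production, thus lay on opposite sides of 0, each with groups that did not overlap. Slc2a2 (−0.49 ± 0.14 SE, edgeR adjusted p = 0.116) and Fbp2 (−1.85 ± 0.56, adjusted p = 0.138) were also lower without overlap. Fbp2 was scarce, with a mean of 0.16 CPM in stress livers and 0.584 CPM in control livers.

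In testis the 7 Leydig cell genes tied to NR4A1, which act in steroid synthesis, hormone reception and testis descent, were all tested. They are the same genes as the Leydig cell markers summed above, so that sum is no separate check of cell composition. The log2 fold change was below 0 in 6, the median was −0.44 against 0.01 over all genes, and 0 passed in edgeR. DESeq2 called 2 and limma 0, against 61 and 2 over all genes. At an unadjusted p below 0.05 edgeR had 5, against 2337 of all 19915 genes tested. Star, which carries cholesterol into mitochondria, had 34.0, 41.0 and 48.6 CPM in stress testes against 60.7, 65.6 and 106 CPM in control testes (−0.91 ± 0.21, adjusted p = 0.422). Lhcgr, the receptor for luteinizing hormone, had 1.58, 0.757 and 2.06 CPM in stress testes against 3.75, 3.47 and 3.93 CPM in control testes (−1.34 ± 0.32, adjusted p = 0.422). Insl3, the Leydig hormone of testis descent, ran the other way, with 106, 271 and 86.2 CPM in stress testes and 79.8, 77.7 and 61.6 CPM in control testes (1.08 ± 0.37, adjusted p = 0.422). Nr4a1 itself had a log2 fold change of −0.05 in these testes.

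For the dopamine neuron genes of NR4A2, 6 of 7 were tested in brain, 1 had a log2 fold change below 0, and 0 passed in edgeR. DESeq2 and limma called 0. At an unadjusted p below 0.05 edgeR had 1 of them, against 1332 of all 17668 genes tested. Ret, a growth factor receptor of dopamine neurons, had 6.15, 6.20 and 7.72 CPM in stress brains and 2.92, 2.65 and 5.05 CPM in control brains, with no overlap (0.92 ± 0.27, adjusted p = 0.545). The dopamine transporter gene Slc6a3 had 0.124, 1.92 and 1.06 CPM in stress brains and 0.119, 0.432 and 0.388 CPM in control brains, which overlapped, and Slc18a2, the vesicular monoamine transporter, had 4.01, 6.69 and 6.63 CPM in stress brains against 3.99, 5.67 and 5.02 CPM in control brains. Both transporters were highest in the stress brains with high choroid plexus sums, which were mostly Ttr. Outside the tissue each target list belongs to, edgeR called 0 genes at either level of stringency (adjusted, or unadjusted p below 0.05), as did DESeq2 and limma: 4 dopamine neuron genes were tested in liver and 6 in testis, 3 Leydig cell genes in liver and 3 in brain, and 2 glucose production genes in brain and 4 in testis.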

How the data were processed

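The deposited table holds whole-number counts, TPM and FPKM per gene and library. The counts were deposited by the authors without normalization; the authors' TPM and FPKM divide them by 1 fixed length per gene, as the deposited columns show. Reads were placed on mouse build mm39, per the submitters' processing notes, from libraries made with a stranded total RNA kit, per the labels' protocols; aligner, counter and strand setting: not given in the sources used here. All value columns were used (0 left out).

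Within each tissue, stress was compared with control by edgeR 4.0.16, run in R 4.3.3 (default low-count filter, TMM factors, quasi-likelihood test, Benjamini-Hochberg adjustment over all genes tested, threshold 0.05). Log2 fold changes are stress minus control with their SE. CPM are counts scaled by library size and TMM factors; marker sums use library size alone. Interactions and tissue comparisons used the libraries of 2 tissues. Alternatives were the DESeq2 size factors in edgeR, no low-count filter, DESeq2 1.42.0, limma 3.58.1 on log2(TPM + 0.5), a replicate or animal block, all 18 libraries in one fit, and leaving out each library. The members, lists and alternatives were chosen with earlier results of these data known. All 9 members are named, of each list up to 4 genes with the smallest p, and the 5 genes most like Nr4a1 and Egr1. The list symbols Cyr61, Ctgf, Mkl1 and Mkl2 were read as Ccn1, Ccn2, Mrtfa and Mrtfb. Names came from GENCODE M21 (build GRCm38), so no positions of the counted genes are given; 570 genes had no symbol.

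Replicate numbers were checked as pairs by correlating, across genes, the deviations from the group means of same-numbered stress and control libraries. In brain these were 0.305, 0.167 and 0.439, against −0.322 to 0.097 for differently numbered pairs. Both replicate 3 brains had the highest striatum sums of their groups (1325 CPM in stress, 2124 CPM in control). Whether these correlations come from a pairing or from shared dissection was not tested. The block is therefore an alternative only, and the correlations are read from these same libraries. The values for liver, 0.187, 0.053 and −0.001, and for testis, 0.077, 0.068 and −0.088, showed no pairing of all numbers. Nothing in the labels ties a stress animal to a control animal or says that replicates are separate animals, so p-values measure the spread between these samples.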

Additional observations from a re-analysis of the deposited data

How the results depend on the processing

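Of 600 values of the 9 genes under an alternative, 531 kept their direction and their side of the threshold. A call was lost in 10 and gained in 27, and 32 changed sign. Stress effects compared between tissues entered only for Nr4a1, Nr4a2, Nr4a3 and Egr1, and only in the liver comparisons. Values without an adjusted p were left out. In liver, in place of 1 of the 9 genes, 4 passed without the low-count filter, 2 with DESeq2, 2 with the replicate block (Nr4a1 at −4.78 and Nr4a3 at −4.72), and 3 in one fit on all 18 libraries, while 0 to 4 passed when 1 library was left out. Over all genes, the 232 calls in liver became 858 without the filter, 856 with DESeq2, 132 with limma on log2 TPM, 475 with the replicate block and 1182 in the joint fit, and 31 to 291 with a library left out. The cause of these shifts was not tested.

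In brain DESeq2 called 1 of the 9 genes. The single call over all genes became 2 without the filter, 137 with DESeq2, 22 with the replicate block, 2 in the joint fit and 0 to 1 with a library left out. In testis 0 to 1 of the 9 genes passed with a library left out, and the 4 calls over all genes became 25 without the filter, 61 with DESeq2, 2 with limma and 0 to 21 with a library left out.

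For liver against brain, 1 of the 9 genes passed without the filter, 1 with DESeq2 and 0 to 3 with an animal left out, and the 37 calls over all genes became 123, 568 and 1 to 46, and 2 with animal as a replicate block. For liver against testis, 2 passed without the filter, 2 with DESeq2 and 0 to 2 with an animal left out, and the 33 calls became 134, 717 and 0 to 78, and 16 with the block. For brain against testis the 0 calls became 8, 95 and 0 to 2. Egr1 in liver against brain ranged from −7.38 to 0.142 with an animal left out.

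Some single genes changed sign. In brain, Nab1 was at −0.012 with the replicate block and −0.004 in the joint fit. With a library left out, Nab1 ran from −0.181 to 0.035 in liver and from −0.173 to 0.103 in brain, Nr4a3 from −0.077 to 0.486 and Nab2 from −0.012 to 0.3 in brain. In testis Nr4a1 ran from −0.16 to 0.033, Nr4a2 from −0.384 to 0.277, Nr4a3 from −0.155 to 0.067, Egr2 from −2.17 to 0.57, Egr3 from −0.041 to 0.214 and Egr4 from −0.176 to 0.186, and Egr4 was at −0.053 with limma. Between control tissues, limma on log2 TPM gave 1.17 for Nr4a1, 0.398 for Egr1, 1.53 for Egr2 and 1.73 for Nab2 in brain against liver, and 0.21 for Nr4a3 and 0.092 for Nab2 in testis against liver; with an animal left out, Egr2 ran from −1.02 to 0.428 and Nab2 from −0.558 to 0.235 in brain against liver. Where the stress libraries split, the size of the fitted change depended on the fit: with the replicate block Egr1 was at −5.86 in liver (adjusted p = 0.143) and −1.65 in testis (0.342), Egr2 at −4.02 in liver (0.131), and Egr1 at −5.67 in liver against brain (0.537) and −3.44 in liver against testis (0.375), none of them past the threshold. The replicate block changed no call of the 9 genes in brain or testis. With 3 libraries per group and 2 to 12 counts of Nr4a3 in stress livers, depth and number limit that call.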

Other observations

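Genes picked as most like Nr4a1 and Egr1 over all 18 libraries did not share a common course in testis. Junb and Zfp36 had stress testes 1 and 3 below every control testis, as Egr1 did, while Socs3 and Csrnp1 did not. Socs3, a feedback inhibitor of cytokine signalling, had 7.50, 21.6 and 8.998 CPM in stress livers and 125, 122 and 114 CPM in control livers, but 1.68, 8.03 and 1.67 CPM in stress testes and 1.81, 1.63 and 2.05 CPM in control testes. Stress testis 2 was thus above every other testis. Junb, an AP-1 subunit, likewise had 5.08, 27.3 and 3.97 CPM in stress testes and 7.69, 12.5 and 23.5 CPM in control testes, with stress testis 2 highest and stress testes 1 and 3 lowest. Zfp36, which promotes decay of cytokine mRNAs, had 53.3, 554 and 58.0 CPM in stress livers and 649, 821 and 746 CPM in control livers, and 6.59, 15.2 and 5.16 CPM in stress testes and 8.95, 11.2 and 20.4 CPM in control testes. Csrnp1, an immediate early nuclear protein gene, had 10.5, 64.6 and 18.1 CPM in stress livers and 81.0, 111 and 86.3 CPM in control livers, whereas its testis values overlapped, at 55.0 to 71.3 CPM in stress testes and 46.8 to 63.2 CPM in control testes. Tchh, a structural protein of hair follicles, had 1.25, 2.69 and 1.96 CPM in stress livers and 11.4, 14.6 and 15.5 CPM in control livers.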
